A study of Mus musculus with 16 samples.

Results

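The cytosolic ribosomal protein genes are those that encode the protein subunits of the ribosome outside mitochondria. Members were the non-control probes whose RefSeq accession belonged to a symbol of the form Rpl or Rps with a number and an optional letter a, x or y, or to Rpsa, Rplp0, Rplp1 or Rplp2. The rule found 75 genes among the 20972 genes named on the array, 45 of the large and 30 of the small subunit, read by 161 probes on 170 of 59305 spots. The gene table holds 76 symbols of this form, and Rpl37 was the one with no matched probe. A total of 24 genes had 1 probe and 51 had more.

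The arrays measured polyadenylated RNA of mouse E14 embryonic stem cells, grown in serum with leukaemia inhibitory factor, as 1-colour Cy3 hybridisations. All groups were transfected with a plasmid, sorted for eGFP at 24 h and harvested at 48 h. The 4 groups carried EGFP alone, Ptn(TALE)VP64 (Ptn VP64 below), Ptn(TALE)DEL (Ptn DEL) and Ptn(TALE)Delta (Ptn Delta). A TALE is a designed DNA-binding protein, here directed at Ptn, and VP64 is a transcriptional activation domain; what the Delta plasmid carries is not given in the labels. Each group had 4 arrays on 2 slides, replicates 1 and 2 on slide 1 and replicates 3 and 4 on slide 2. They were 2 biological and 2 technical replicates in an order that is not stated, so spread between arrays is partly technical. Each group had its own column of the slides, so plasmid and column cannot be told apart.

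Ribosomal proteins assemble with ribosomal RNA into the small subunit, which decodes the messenger RNA, and the large subunit, which joins the amino acids. Their messenger RNAs are among the most abundant in growing cells, and many begin with a cytosine followed by a run of pyrimidines, the 5′ terminal oligopyrimidine motif, through which mTOR and La-related protein 1 (Larp1) control their translation. Many of these genes have processed pseudogenes of nearly the same sequence, so a probe may also read related transcripts.

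The motif can be seen at the annotated start sites. RefSeq promoters of assembly GRCm38.p6 were held for 55 of the 75 genes. The 30-base windows below run from 15 bases before the start site to 15 bases from it, 5′ to 3′, and are shown for genes whose array values are described further on. Capitals mark the unbroken run of pyrimidines that begins at the start site with a cytosine.
Rpl15, chr14:18270972-18271001, minus strand: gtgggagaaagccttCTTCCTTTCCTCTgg
Rpl35, chr2:39005117-39005146, minus strand: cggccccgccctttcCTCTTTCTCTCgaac
Rps6, chr4:86857353-86857382, minus strand: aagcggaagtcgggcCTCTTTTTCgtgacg
Rps15a, chr7:118116133-118116162, minus strand: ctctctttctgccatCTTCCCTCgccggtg
Rps21, chr2:180257364-180257393, plus strand: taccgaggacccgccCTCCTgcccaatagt
Rps9, chr7:3704026-3704055, plus strand: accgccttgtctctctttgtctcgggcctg
Rps3, chr7:99483695-99483724, minus strand: cttgcaagggtcgccgcgctgcgcggcgtc
Rpl13, chr8:123102335-123102364, plus strand: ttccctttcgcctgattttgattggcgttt
The run was 13 bases long at Rpl15, the longest among the 55 genes, 11 at Rpl35, 9 at Rps6, 8 at Rps15a and 5 at Rps21. Rps9, Rps3 and Rpl13 had no such run at the annotated base, although Rps9 and Rpl13 have pyrimidine stretches within their windows.

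A cytosine with at least 4 pyrimidines after it stood at the start site of 12 of the 55 genes, 21.8%, against 2.49% of all 27025 genes with a promoter, with the first listed start of each gene. With any listed start it was 13 genes, 23.6%, against 3.01%. With the start allowed to lie from 5 bases before to 10 bases after the annotated base, the shares were 47.3% and 18.5%. The letters CCGGAAG, as bound by ETS factors, occurred on either strand of the 300-base promoter in 38.2% of the members and 9.12% of all genes. GGGCGG, the SP1 motif, occurred in 58.2% and 35.9%, AAGATGGC, as bound by YY1, in 7.27% and 2.88%, CACGTG, an E-box, in 9.09% and 7.24%, and TATAAA in 9.09% and 14.2%. These are counts of letters, and they do not show that a factor binds there.

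On these arrays 133 of the 161 ribosomal protein probes reached the upper limit of the scanner at least once. Feature Extraction, the software that read the images, marks a spot as saturated when its pixels reach the limit of 65535. On EGFP replicates 1 to 4, 79, 11, 81 and 79 of the 170 member spots were saturated. The counts were 77, 32, 95 and 98 with Ptn VP64, 96, 69, 108 and 73 with Ptn DEL, and 92, 65, 82 and 65 with Ptn Delta. EGFP replicate 2 and Ptn VP64 replicate 2 were the lowest, and the groups overlapped. As shares, 6.5% to 63.5% of the member spots were saturated per array, against 0.113% to 1.4% of the other spots. Members made up 0.287% of the spots and 9.7% to 22.3% of the saturated ones.

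A gene was read by its brightest probe among those clearly above background on 4 arrays or more, and all 75 genes passed. The probe so chosen was saturated on at least 1 array for 73 genes, 97.3%, against 397 of 12806 other genes, 3.1%. It was saturated on at least 8 arrays for 57 genes and on all 16 for Rps12. Rpl26, Rpl29 and Rpl9 each had a probe saturated on 15 arrays, and Rpl10a, Rpl14, Rpl31, Rpl38, Rplp1, Rps10, Rps13, Rps2 and Rps6 one saturated on 14. A saturated spot gives only a lower limit of its signal, whatever value it is assigned.

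All 12 markers of embryonic stem cells were well above background on every array, and 0 to 4 of 8 fibroblast markers were. The number of the 8 primitive endoderm markers above background was 3 to 5 per array with EGFP and 4 to 8 in the other groups. For the 8 trophoblast markers it was 1 to 4 with EGFP and 3 to 7 in the others, and for the 5 neural markers 1 to 4 and 1 to 5. Their part in the results was not tested. Ptn, the targeted gene, had levels (defined below) of -0.68, -1.25, -1.3 and -1.61 with EGFP and of 2.65, 3.47, 3.67 and 2.61 with Ptn VP64 when marked spots were kept. Every Ptn VP64 array was then above every array of the other groups. With marked spots left out, as elsewhere in the report, only Ptn VP64 replicate 3 remained in its group, at 3.67. The array's 75th percentile of processed signal, the scale of all levels, was 209.3 on EGFP replicate 2 and 559.1 to 1253.0 on the other 15 arrays.

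**Figure D1:**
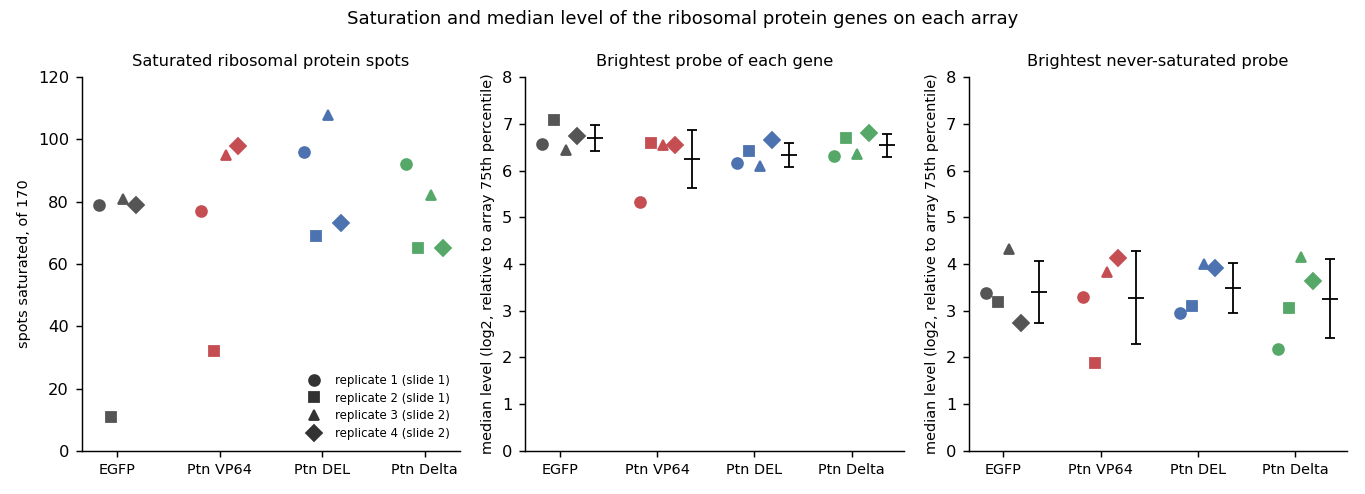
Left, the number of saturated ribosomal protein spots on each array, of 170. Middle and right, the median level of the genes on each array (log2, relative to the array's 75th percentile) read by the brightest probe and by the brightest probe that was never saturated; black bars are the mean and SD of 4 arrays. Ptn VP64 replicate 1, at 5.32, lies below the other arrays in the middle panel.

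Levels are given as log2 of the processed signal minus log2 of that array's 75th percentile. The median level of the genes was 6.57, 7.08, 6.44 and 6.73 on the EGFP arrays and 5.32, 6.59, 6.55 and 6.55 on the Ptn VP64 arrays. It was 6.17, 6.42, 6.09 and 6.65 with Ptn DEL and 6.32, 6.69, 6.36 and 6.81 with Ptn Delta. The groups overlapped, and Ptn VP64 replicate 1 was the lowest array. The raw signal of a saturated spot is the scanner limit, and its processed signal ranged from 11208 to 734631 over the arrays. On some arrays of each group its highest value was only 65447 to 65483. These were EGFP replicates 1 and 3, Ptn VP64 replicate 3, and replicates 1 and 4 of Ptn DEL and Ptn Delta. The level of a saturated spot therefore follows the array's scale and spatial correction, which were not alike on all arrays, and not the amount of RNA. The probe that read a gene was in that state on a median of 10 of the 16 arrays. In these bulk samples, a smaller share of cells and less RNA per cell could not be told apart.

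Compared with EGFP, the genes lay lower on balance in each of the 3 TALE groups, and none of them was called. With Ptn VP64, 18 of 74 genes tested were higher and 56 lower, with a median difference of -0.47 log2, while the median of all 12809 genes was 0.12. With Ptn DEL, 14 were higher and 60 lower, with medians of -0.39 for the members and 0.26 for all genes. With Ptn Delta, 25 were higher and 49 lower, with medians of -0.20 and 0.28. These 3 comparisons share the EGFP arrays. The split depended on the scale. With the array median as the scale, 44, 37 and 43 of the 74 genes were lower, with medians of -0.14, -0.01 and -0.19 for the members and 0.44, 0.62 and 0.37 for all genes. After quantile normalization, 48, 52 and 55 were lower. Between the TALE groups the member medians were -0.05 for Ptn VP64 minus Ptn DEL, -0.15 for Ptn VP64 minus Ptn Delta and -0.16 for Ptn DEL minus Ptn Delta, with -0.15, -0.16 and -0.05 for all genes.

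The planned test averaged the 4 arrays of a group to 2 samples in each of 3 pairings, fitted limma to each and kept the largest p. It called 0 members and 0.0% of all genes, at a Benjamini-Hochberg adjusted p under 0.05, in Ptn VP64 minus EGFP, in Ptn DEL minus EGFP, in Ptn Delta minus EGFP and in the 3 comparisons between TALE groups. At an unadjusted p under 0.05 it had 0, 1 and 0 members against EGFP, and 1, 0 and 0 in Ptn VP64 minus Ptn DEL, Ptn VP64 minus Ptn Delta and Ptn DEL minus Ptn Delta. With 2 averaged samples a group this test is weak, and 0 calls do not show equal levels.

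The medians lay further below 0 on slide 1 than on slide 2. On slide 1 the member medians were -1.05 for Ptn VP64, -0.51 for Ptn DEL and -0.43 for Ptn Delta, each minus EGFP, with -0.26, -0.03 and 0.19 for all genes. On slide 2 they were -0.04, -0.22 and 0.00, with 0.29, 0.37 and 0.43 for all genes. Without EGFP replicate 2 and Ptn VP64 replicates 1 and 2, arrays chosen after the values were seen, the member medians were -0.05, -0.26 and -0.06. Without EGFP replicate 2 alone they were -0.27, -0.23 and -0.07, and without Ptn VP64 replicate 1 alone the Ptn VP64 value was -0.23. The Ptn Delta value was -0.36 without EGFP replicate 3, -0.10, -0.30 and -0.35 without Ptn Delta replicates 1, 2 and 4. Without Ptn VP64 replicate 1, Ptn VP64 minus Ptn DEL was 0.18 and Ptn VP64 minus Ptn Delta 0.03.

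Large patches of the slides were brighter or darker than their surroundings, and 0.64% to 35.56% of the spots on an array lay in regions shifted by over 1 log2. The local shift was therefore estimated around each spot and subtracted, and spots in strongly shifted regions were left out, which kept 69 of the genes. The brightest probe was then chosen again, so a gene may be read by another probe than in the planned test. The medians were then -0.55 for Ptn VP64, -0.76 for Ptn DEL and -0.74 for Ptn Delta minus EGFP, with all-gene medians of 0.01, 0.05 and 0.04. Of the 69 genes, 59, 64 and 61 were lower. When the 16 shift-corrected arrays were fitted unaveraged with the slide as a term, which counts technical repeats as replicates, limma again called 0 members in each comparison. The share of all genes called there was 2.65% in Ptn VP64 minus EGFP, 0.0354% in Ptn DEL minus EGFP, 0.0266% in Ptn Delta minus EGFP, 0.514% in Ptn VP64 minus Ptn DEL, 0.452% in Ptn VP64 minus Ptn Delta and 0.0% in Ptn DEL minus Ptn Delta. At an unadjusted p under 0.05 it had 8, 21 and 21 of the 69 members against EGFP, beside 1709, 831 and 915 of all 11284 genes.

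With 1 array left out of that fit at a time, 2 of 96 comparisons had a member called. Rps10, a small subunit protein, was called lower with Ptn VP64 than with EGFP without EGFP replicate 3 (difference -1.46, limma adjusted p = 0.0425), against -0.89 and an adjusted p of 0.281 with all arrays. Rps26, another small subunit protein, was called lower with Ptn VP64 than with Ptn Delta without Ptn Delta replicate 3 (difference -3.30, limma adjusted p = 0.0134), against -1.78 and an adjusted p of 0.367 with all arrays, where it was measured on 2 Ptn Delta arrays. The probe of Rps10 was saturated on 14 arrays and that of Rps26 on 10.

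In that fit 1 array moved each of the 3 medians against EGFP by more than 1.5 times. With all arrays they were -0.45 for Ptn VP64, -0.80 for Ptn DEL and -0.75 for Ptn Delta. Without EGFP replicate 2, the array with 11 saturated member spots, they were -0.21, -0.45 and -0.31. Without Ptn Delta replicate 1 the Ptn Delta value was -0.42.

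**Figure D2:**
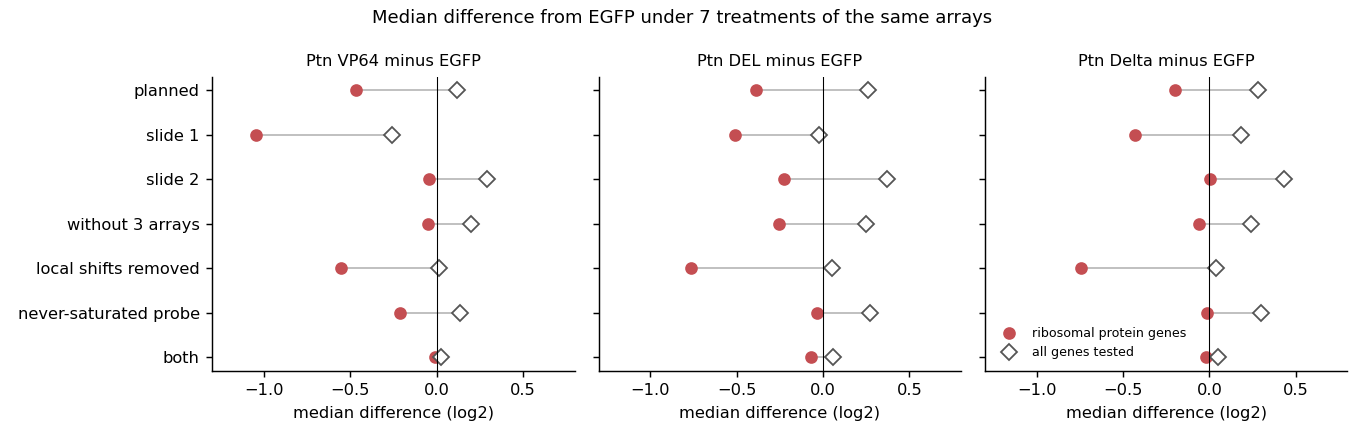
Median difference from EGFP (log2) of the ribosomal protein genes (filled circles) and of all genes tested (open diamonds) under 7 treatments of the same arrays; both means that the local shift was removed and the probe was never saturated. The circles lie left of the diamonds in most rows and, in the rows that use never-saturated probes, nearer to 0 than in the planned row.

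Other genes whose probes were saturated as often differed from EGFP in the same direction. After removal of the local shift, 15 members and 19 other genes were read by a probe saturated on 13 to 16 arrays. Their median differences were -0.74 and -0.35 for Ptn VP64, -0.87 and -0.83 for Ptn DEL, and -0.90 and -0.43 for Ptn Delta. For probes saturated on 9 to 12 arrays, 31 members and 42 other genes, the pairs were -0.39 and -0.39, -0.83 and -0.57, and -0.58 and -0.57. For 14 members and 61 other genes at 5 to 8 arrays they were -0.63 and -0.25, -0.90 and -0.41, and -0.91 and -0.43. For 4 members and 169 other genes at 1 to 4 arrays they were -0.17 and -0.21, -0.79 and -0.21, and -0.80 and -0.17. The members were thus lower than the other genes of their class in most pairs, by the widest gap for Ptn Delta at 1 to 4 arrays. Where the probe was never saturated, 5 members had medians of -0.03, -0.23 and -0.22, and 10880 other genes 0.03, 0.06 and 0.05. The part that saturation has in the lower values of the members was not tested beyond these classes.

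**Figure D3:**
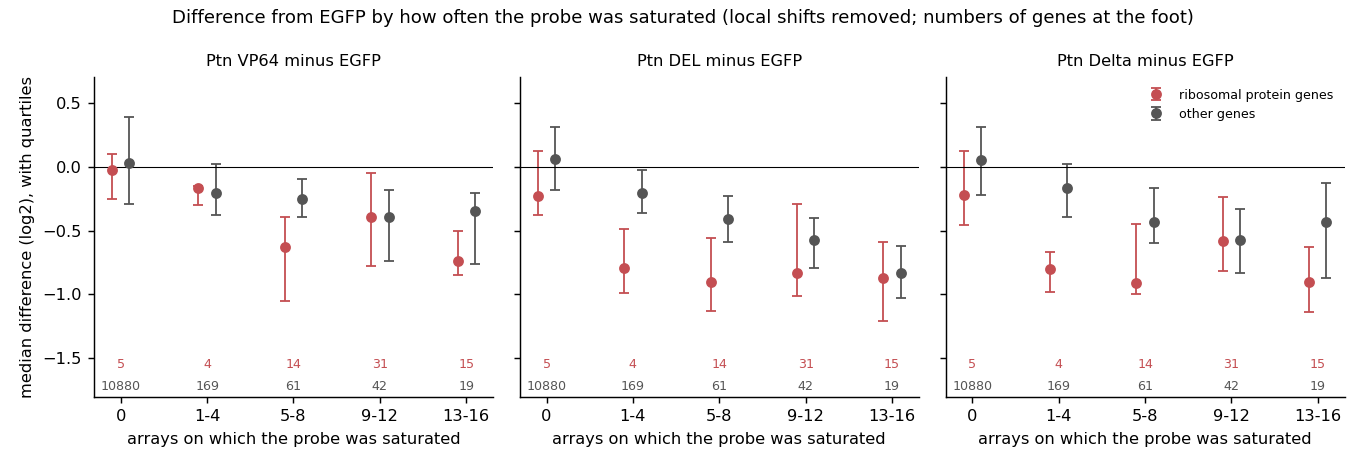
Median difference from EGFP (log2, bars from the lower to the upper quartile of genes) by the number of arrays on which the probe was saturated, after removal of the local shift, for ribosomal protein genes and other genes, with the number of genes in each class at the foot. In the class with 0 arrays the other genes lie near 0 and the 5 members at -0.03, -0.23 and -0.22. In the other classes both sets lie below 0.

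Probes that stayed below the limit gave medians nearer to 0. A total of 28 member probes, of 24 genes, were never saturated, and 22 of these genes passed the filter. Read by them, the members had median differences from EGFP of -0.21 for Ptn VP64, -0.04 for Ptn DEL and -0.01 for Ptn Delta, with 12, 11 and 11 of 21 genes lower. Other genes whose brightest probe was never saturated had medians of 0.13, 0.28 and 0.30, so the members still lay below them. Some of these member probes were dim, such as those of Rps15a and Rps27a, with mean levels of -0.95 and -0.45 with EGFP. After removal of the local shift the member medians over 18 genes were -0.01, -0.07 and -0.02. This choice of probes was made after the values were seen.

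Of these, 16 probes of 14 genes were well above background on all 16 arrays, among them Rpl13, Rpl15, Rpl23, Rpl31, Rpl35a, Rpl7a, Rps21 and Rps3. For each gene, 1 of them was used. Their differences from EGFP had medians of -0.15, -0.13 and -0.01 for Ptn VP64, Ptn DEL and Ptn Delta over the 13 genes with EGFP values. Values are missing below where Feature Extraction marked the spot as non-uniform or as an outlier.

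Rpl13, a large subunit protein, had levels of 5.83, 6.52, 5.17 and 5.20 with EGFP and of 2.74, 3.96 and 4.62 on the 3 arrays kept with Ptn Delta. Ptn Delta was lower on each of its arrays, and the groups did not overlap, as for 6.05% of the genes with at least 3 arrays in both groups. The difference was -1.91 ± 0.72 (SE), with an unadjusted p of 0.0497 and an adjusted p of 0.973 in limma over all genes. Ptn Delta replicates 1 and 2 lay in strongly shifted regions for this probe, so its difference was not fitted after removal of the local shift. Rpl13 had 5.86, 4.46, 5.46 and 4.99 with Ptn DEL and 4.51 and 5.39 with Ptn VP64, which overlapped EGFP. Another probe of Rpl13, saturated on 10 arrays, differed by 1.06 between Ptn Delta and EGFP, in the opposite direction.

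Rps3, a small subunit protein at the entry of the messenger RNA channel that also takes part in DNA repair, had levels of 3.29, 5.27 and 4.61 with EGFP. With Ptn VP64 it had 2.90, 1.1 and 4.61, with Ptn DEL 5.36, 5.09, 4.61 and 2.61, and with Ptn Delta 5.52, 4.44, 4.54 and 4.53. All groups overlapped, and Ptn VP64 minus EGFP was -1.52 ± 0.93 (SE; limma adjusted p = 1). The Ptn VP64 values of 2.90 and 1.1 lay in strongly shifted regions and were left out when the local shift was removed. Another never-saturated probe of Rps3 then differed by -0.81 ± 0.48 (SE; limma adjusted p = 0.505) between Ptn VP64 and EGFP in the unaveraged fit. There Ptn VP64 differed by -0.89 ± 0.54 from Ptn DEL and by -0.85 ± 0.52 from Ptn Delta. In the planned test these 2 differences were -1.55 ± 0.93 and -1.89 ± 0.93.

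Rps21, a small subunit protein, had 5.28 and 4.80 with EGFP, and 5.58, 5.61, 5.60 and 3.91 with Ptn DEL. It had 5.00, 2.16 and 5.62 with Ptn VP64 and 5.61, 5.12 and 4.37 with Ptn Delta. Its differences from EGFP were -0.78, 0.13 and -0.01 for Ptn VP64, Ptn DEL and Ptn Delta, with an SE of 0.98 in each. After removal of the local shift, which left out the 2.16, they were -0.03 ± 0.55, -0.47 ± 0.49 and -0.71 ± 0.53 (SE) in the unaveraged fit.

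Rpl31, which lies at the exit of the peptide tunnel, had 3.46, 2.52 and 2.09 with EGFP and -1.07, 2.69, 2.60 and 2.37 with Ptn Delta. Replicate 1 alone was low in Ptn Delta. Rpl23, which binds Mdm2 when it is free of ribosomes, showed the same array apart, with 0.64, 4.44, 4.15 and 4.47 in Ptn Delta against 5.21, 3.29, 4.39 and 3.54 with EGFP. Its differences from EGFP were within their errors in each TALE group. For both genes Ptn Delta replicate 1 was left out when the local shift was removed. Ptn Delta minus EGFP was then -0.28 ± 0.24 (SE) for Rpl31 and -0.19 ± 0.21 for Rpl23 in the unaveraged fit. In the planned test these differences were -1.04 and -0.69.

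Rpl35a, mutated in some human patients with Diamond-Blackfan anaemia, had 7.23, 5.62 and 5.64 with EGFP, 4.83, 5.56 and 5.71 with Ptn VP64, and 5.98, 5.48, 5.56 and 5.35 with Ptn DEL. With Ptn Delta it had 3.41, 5.69 and 5.45. EGFP replicate 2 was the highest and Ptn Delta replicate 1 the lowest of its arrays, and the differences from EGFP were -0.80, -0.57 and -1.32, each with an SE of 0.92. Both of those arrays were left out for Rpl35a when the local shift was removed. Ptn Delta minus EGFP was then -0.46 ± 0.37 (SE) in the unaveraged fit.

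Rpl7a had 5.77, 5.43 and 5.72 with EGFP by its never-saturated probe, and 4.64, 5.96 and 5.86 with Ptn VP64. It had 5.58, 5.78 and 5.18 with Ptn DEL and 6.30, 5.79 and 5.61 with Ptn Delta. Its differences of -0.15, -0.13 and 0.26 had an SE of 0.65. By its brightest probe Rpl7a had 4.22, 6.41 and 4.82 with EGFP, and differences of 1.07, 1.12 and 1.0, each with an SE of 0.71. That probe was saturated on 0 EGFP, 2 Ptn VP64, 2 Ptn DEL and 1 Ptn Delta arrays. Rpl15, a large subunit protein, had 3.67 and 5.04 with EGFP by its never-saturated probe and 5.53, 4.87, 5.01 and 5.01 with Ptn DEL. Its mean was 4.36 ± 0.97 (SD, n = 2) with EGFP, and the other groups lay at 4.85 ± 0.22 (n = 3), 5.11 ± 0.29 (n = 4) and 5.17 ± 0.57 (n = 4).

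**Figure D4:**
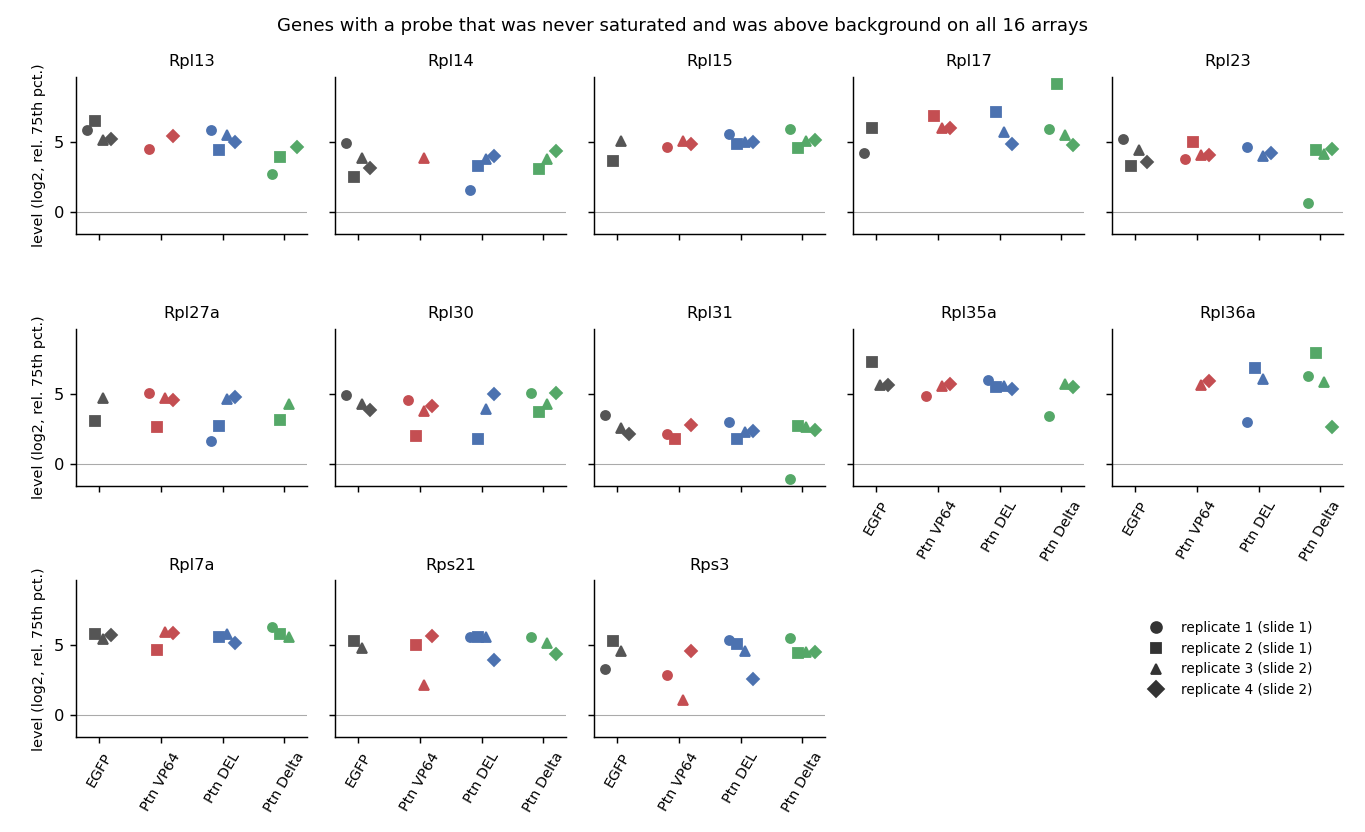
Level of 13 ribosomal protein genes on each array (log2, relative to the array's 75th percentile), read by a probe that was never saturated and was above background on all 16 arrays; marker shape gives the replicate and slide, and arrays whose spot was marked are not drawn. The groups overlap in nearly every panel, and Ptn Delta replicate 1 lies apart for Rpl13, Rpl23, Rpl31 and Rpl35a. The local shift was not removed from these levels, and those Ptn Delta replicate 1 spots lay in strongly shifted regions.

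Among the members read by their brightest probe, the genes with the smallest p in each comparison with EGFP had saturated spots in at least 1 of the groups compared. Some of their differences rest on 1 array. Rps15a, a small subunit protein, had 6.57, 6.70, 6.42 and 6.70 with EGFP, all saturated, and 3.96, 5.54, 6.14 and 3.51 with Ptn DEL, 2 of them saturated. The difference was -1.81 ± 0.76 (SE; unadjusted p = 0.0392, limma adjusted p = 1). With saturated spots in both groups this is neither a fold nor a bound of one, and the distance between saturated spots follows the scale of the arrays.

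Rps7, also mutated in some of these patients, had 6.46, 7.41, 6.42 and 6.67 with EGFP and 4.53, -2.09, 6.24 and 6.49 with Ptn Delta. Rpl41, the smallest ribosomal protein, had 6.52, 7.32, 6.44 and 6.68 with EGFP and 4.53, -3.31, 6.35 and 6.83 with Ptn Delta. For both genes Ptn Delta replicate 2 was far below the other arrays, and slide 2 was close to EGFP. The differences were -2.95 ± 1.29 and -3.14 ± 1.45 (SE), with limma adjusted p of 0.98 for each. After removal of the local shift they were -0.36 ± 0.35 and -0.67 ± 0.57.

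Rps2, which lies at the messenger RNA entry channel, was not saturated with EGFP by its brightest probe, which had 4.08, 6.65, 4.51 and 7.02. With Ptn VP64 it had 8.38, 6.98, 6.55 and 6.57, of which 2 were saturated, and the groups overlapped. The differences were 1.55 ± 0.85 (SE) for Ptn VP64 and 1.12 ± 0.85 for Ptn DEL, both with a limma adjusted p of 1. With the local shift removed and the brightest probe chosen again, Rps2 had -0.33 ± 0.32 and -0.85 ± 0.32 in the unaveraged fit. Without that removal, another probe of Rps2, saturated on 14 arrays, differed by -0.6 and -0.8, in the opposite direction. Rps9 had 3.83, 6.33, 6.44 and 6.72 with EGFP and 6.28, 8.91, 6.48 and 6.83 with Ptn Delta, where it was saturated on all 4 arrays, against 2 with EGFP. The mean was 7.13 ± 1.21 (SD, n = 4) with Ptn Delta and 5.83 ± 1.34 (n = 4) with EGFP (limma adjusted p = 0.98), and after removal of the local shift the difference was -0.79 ± 0.53 (SE).

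Rpl15 by its brightest probe had 6.57, 7.55, 6.44 and 6.86 with EGFP, all saturated, and 5.09, 5.19 and 6.37 with Ptn VP64, where 2 arrays were saturated. The means were 6.86 ± 0.49 (SD, n = 4) and 5.55 ± 0.71 (n = 3; limma adjusted p = 1), while the never-saturated probe of Rpl15 differed by 0.50 in the opposite direction. Rpl5, which carries the 5S ribosomal RNA and binds Mdm2, had 6.56, 6.17 and 6.34 with EGFP and 3.85, 5.85, 6.12 and 3.49 with Ptn DEL, a difference of -1.53 ± 0.78 (SE; limma adjusted p = 1). Its probe was saturated on 1 array of each of these groups. Rpl35, at the tunnel exit, had 6.95, 6.44 and 7.08 with EGFP and 6.16, 3.58 and 6.63 with Ptn VP64, a difference of -1.37 ± 0.88 (SE; limma adjusted p = 1).

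Between the TALE groups, Rps15a had the smallest p in Ptn VP64 minus Ptn DEL, with a difference of 1.87 ± 0.76 (SE; unadjusted p = 0.0395, limma adjusted p = 1). In Ptn DEL minus Ptn Delta its means were 4.79 ± 1.26 and 6.20 ± 0.62 (SD, n = 4 each), with 2 and 4 arrays saturated. Rpl41 had 6.18 ± 0.34 and 3.6 ± 4.71 (n = 4 each), with 4 and 2 arrays saturated, and the second mean holds the low Ptn Delta replicate 2. Both differences changed sign under other settings. Rps15 differed by -1.60 ± 1.31 between Ptn VP64 and Ptn DEL and by -1.76 ± 1.31 between Ptn VP64 and Ptn Delta, with 1 low array, Ptn VP64 replicate 3, at 2.12.

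Grouped by place in the ribosome, no gene was called under the planned test. The medians of these groups, some of a single gene, ran from -1.02 to 0.50 for Ptn VP64, and differences between the groups were not tested. The large subunit had median differences from EGFP of -0.43, -0.44 and -0.20 and the small subunit of -0.52, -0.36 and -0.11, for Ptn VP64, Ptn DEL and Ptn Delta. After removal of the local shift, in the unaveraged fit, the large subunit had -0.67, -0.92 and -0.90 over 42 genes and the small subunit -0.33, -0.47 and -0.37 over 27. With only never-saturated probes in that fit, the large subunit had -0.03, -0.23 and -0.19 over 11 genes. The small subunit had -0.02, 0.07 and 0.04 over 7. The 4 proteins of the P stalk, which recruits elongation factors (Rplp0, Rplp1, Rplp2 and Rpl12), were lower than EGFP in all 3 groups, with medians of -0.77, -0.87 and -0.50. Their probes were saturated on 12, 14, 9 and 13 arrays. Rplp1 went from 7.05 ± 0.83 (SD, n = 4) with EGFP to 5.98 ± 0.87 (n = 3) with Ptn VP64, and all 4 EGFP arrays were saturated.

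The proteins next to the peptidyl transferase centre (Rpl3, Rpl4, Rpl8 and Rpl10) had medians of -0.47, -0.53 and 0.04, and those of the decoding site and messenger RNA channel of -1.02, -0.28 and -0.43. The 3 genes of the 5S particle and Mdm2 binding had 0.01, -0.15 and -0.33. Rps6, the substrate of S6 kinase, had differences of -0.60, -0.73 and -0.55, each with an SE of 0.66, by a probe saturated on 14 arrays. After removal of the local shift they were -0.76, -1.25 and -1.09 in the unaveraged fit. A never-saturated probe of Rps6 had -0.21 ± 1.41, -1.37 ± 1.05 and 0.23 ± 1.05 (SE) in the planned test. With the local shift removed that probe had -0.02 ± 0.27, 0.07 ± 0.22 and -0.03 ± 0.21 in the unaveraged fit. Rpsa, also known as the laminin receptor precursor, had 0.50, -0.15 and 0.26. In the unaveraged fit after removal of the local shift it had 0.03, 0.15 and -0.32. A dimmer, never-saturated probe of Rpsa, of mean level -0.02 with EGFP, had -0.96, -0.76 and -2.2 in the planned test, each with an SE of 1.1. With the local shift removed that probe had -0.34, -0.13 and -0.08 in the unaveraged fit. The 13 genes listed for Diamond-Blackfan anaemia had medians of -0.35, -0.40 and -0.36 over 12 genes tested.

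Different probes of the same gene often disagreed. Of the genes with at least 2 probes measured in both groups, the sign of the difference from EGFP differed between probes in 14 of 34 with Ptn VP64, 12 of 40 with Ptn DEL and 20 of 42 with Ptn Delta. The differences between Ptn Delta and EGFP spanned 3.53 log2 over 3 probes of Rps16, 3.10 over 3 probes of Rpl7 and 2.96 over 3 probes of Rpl13. After removal of the local shift, 6 of 20, 6 of 28 and 7 of 29 genes had probes of opposite sign.

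Correlations among the member probes were close to those among other probes with like saturation. Over the 16 arrays, with marked spots kept, the mean pairwise correlation of the 90 member probes saturated on 8 or more arrays was 0.277, and that of 381 other probes so saturated was 0.269. For the 16 member probes that were never saturated and above background on all arrays it was -0.017, and for 8048 other such probes 0.043. The points share arrays, scale and local patches, and these are descriptions with no test.

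Genes that work with the ribosomal proteins were read the same way, and the planned test called none of them. The 19 measured translation factors and other transcripts that start with a pyrimidine run had medians of -0.19, -0.02 and 0.09 for Ptn VP64, Ptn DEL and Ptn Delta minus EGFP. In the unaveraged shift-corrected fit they had -0.17, -0.31 and -0.16, with 16, 17 and 14 of 19 lower. Pabpc1, the poly(A)-binding protein, differed by -1.02 ± 0.82 (SE) with Ptn VP64 and Eef1a1, which brings aminoacyl-tRNA to the ribosome, by -0.71 ± 0.63 with Ptn DEL. The 11 measured genes of ribosomal protein paralogs and related proteins had -0.39, -0.58 and -0.38, and 8 of them -0.04, -0.43 and -0.21 in the shift-corrected fit. Rpl22l1, the paralog of Rpl22, differed by -2.42 ± 1.11 with Ptn DEL (limma adjusted p = 1).

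The 41 measured ribosome biogenesis genes had medians of 0.17, 0.22 and 0.39, and 24, 27 and 32 of them were higher than EGFP. In the shift-corrected fit 34 of them had 0.05, 0.08 and 0.20. Nob1, the endonuclease that finishes 18S ribosomal RNA, differed by -5.55 ± 1.05 (SE) with Ptn VP64, with an unadjusted p of 0.000794 and a limma adjusted p of 0.608. Utp15, of the small subunit processome, differed by 1.45 ± 0.63 with Ptn DEL and 1.51 ± 0.63 with Ptn Delta. The 14 genes of RNA polymerase I had -0.47, 0.11 and -0.18, and 12 of them -0.14, 0.12 and 0.13 in the shift-corrected fit. The 18 genes of growth signalling to translation had 0.31, 0.52 and 0.60, and 16 of them 0.03 in each comparison in the shift-corrected fit. In the planned test Larp1 differed by 1.69 ± 0.97 with Ptn VP64, 2.07 ± 0.82 with Ptn DEL and 1.91 ± 0.82 with Ptn Delta. The 10 genes of the integrated stress and p53 responses had -0.02, 0.09 and 0.65, and 8 of them -0.22, 0.27 and 0.16 in the shift-corrected fit. The 74 mitochondrial ribosomal protein genes, whose products form the other ribosome of the cell, had -0.10, 0.29 and 0.11. In the shift-corrected fit 61 of these had -0.10, -0.09 and -0.09, with 42, 40 and 41 lower, so the sign turned for Ptn DEL and Ptn Delta.

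In the unaveraged shift-corrected fit, 1 gene of these lists was called, Eif4e, the cap-binding protein, higher with Ptn VP64 by 1.70 ± 0.34 (SE; limma adjusted p = 0.0381). It rested on 3 Ptn VP64 arrays and 2 EGFP arrays. With 1 array left out in turn the adjusted p ranged from 0.00442 to 0.183, and 6 of 16 fits kept the call. In the planned test Eif4e, read by another probe, differed by 0.26 ± 0.83 (adjusted p = 1).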

How the data were processed

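Each of the 16 arrays came as a table of Agilent Feature Extraction 11.5.1.1, per the file headers. The authors deposited a processed intensity for each spot, corrected for background and for a spatial trend and with no scaling across arrays, and raw median intensity of spot and background. The series values the authors deposited are log2 and quantile-normalized, as their equal quantiles show, and served as an alternative. Their rank correlation with the processed intensity was 0.9384 to 0.9722 on the arrays where saturated spots reached at most 65447 to 65483. It was 1.0 on the others, so the arrays were not all processed alike, and what this does to the group differences was not tested.

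Probes were named through RefSeq accessions in the GRCm38.p6 gene table, where 27656 of 55681 probes had 1 symbol. The log2 processed signal minus the log2 75th percentile of non-control spots was used, without spots marked as non-uniform or outliers and with saturated spots. Probes clearly above background on 4 arrays or more were kept, and the brightest probe read each of 12881 genes. Arrays were averaged to 2 samples a group in all 3 pairings and fitted with limma 3.58.1 in R 4.3.3. The slide was a term for the pairing 1+2 and 3+4. The difference is the mean of the 3 fits, the SE and p the largest, and p-values were adjusted by Benjamini-Hochberg over all genes. The local shift was the median over 21 by 21 spots. It was taken from 17906 spots with a median level of at least -1, and spots shifted by over 1 log2 were left out. The brightest probe was then chosen again among those with values on at least 2 arrays in each group. The fits were tested on simulated data. The numbers of arrays and samples limit the precision.

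The members and gene lists were chosen with earlier results of these data known. Genes were named by rule: those with the 2 smallest p in each direction and comparison, those most often saturated, those whose probes differed most, and the 2 genes with the smallest p of each list described. The 14 genes read by never-saturated probes were chosen after their values were seen. The values of 1 gene of this set are not reported here.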

Additional observations from a re-analysis of the deposited data

Results flagged for a closer look

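In 9 of 41 groups of 4 arrays examined, 1 array stood apart from the other 3 by more than Dixon's 95% limit, which chance gives in about 1 group of 20. EGFP replicate 2 had 11 saturated member spots, against 79 to 81 on the other EGFP arrays. Ptn VP64 replicate 1 had a median member level of 5.32, and of 5.41 after removal of the local shift. Ptn Delta replicate 1 had a median of 5.26 after removal of the local shift. Ptn VP64 replicate 2 had a median of 0.40 over the never-saturated probes after removal of the local shift. Among the 14 genes read by never-saturated probes, Ptn Delta replicate 1 was low for Rpl23 at 0.64 and for Rpl31 at -1.07, and high for Rps3 at 5.52. The Rpl23 and Rpl31 spots of that array lay in strongly shifted regions. Ptn DEL replicate 4 was low for Rps21 at 3.91. All but Ptn DEL replicate 4 lie on slide 1.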

How the results depend on the processing

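No member was called under any of the 210 alternatives to the planned test that gave one, by limma at an adjusted p under 0.05. With 1 array left out of the unaveraged shift-corrected fit, 2 of 96 comparisons called 1 member each, Rps10 and Rps26. Of 222 alternative medians, 209 moved by less than 1 SD between replicates. The 13 others follow. Ptn VP64 minus EGFP was -1.05 on slide 1 alone. Ptn DEL minus EGFP was -0.76 after removal of the local shift, -0.80 with that in the unaveraged fit, -0.12 with the authors' values, -0.01 with the array median as the scale, -0.09 without the local shift and saturated spots, -0.04 with never-saturated probes, and -0.07 with these and the local shift removed, averaged or unaveraged. Ptn Delta minus EGFP was -0.74 after removal of the local shift and -0.75 in the unaveraged fit. Ptn DEL minus Ptn Delta was 0.17 with the authors' values and 0.11 after quantile normalization. With 1 array left out at a time, the medians ranged from -0.56 to -0.23 for Ptn VP64, -0.54 to -0.23 for Ptn DEL and -0.36 to -0.07 for Ptn Delta minus EGFP. They ranged from -0.13 to 0.18 for Ptn VP64 minus Ptn DEL, -0.31 to 0.03 for Ptn VP64 minus Ptn Delta and -0.31 to -0.06 for Ptn DEL minus Ptn Delta.

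Of 766 alternative values of the named members, 47 had the opposite sign. Where 2 values are given for the local shift, the second is the unaveraged fit. Rps2 minus EGFP was -0.24 and -0.33 with the local shift removed and -0.29 with normexp for Ptn VP64, and -0.76, -0.85 and -0.34 for Ptn DEL. Rpl7a in Ptn VP64 minus EGFP was -0.15 with never-saturated probes. In Ptn DEL minus EGFP it was -0.23 under each of the 5 settings with the local shift removed and -0.13 with never-saturated probes. With the local shift removed, Rpl7a was read by its never-saturated probe, so those settings changed the probe as well. In Ptn Delta minus EGFP it was -0.22 and -0.39 with the local shift removed, also with never-saturated probes, and -0.22 without saturated spots. Rpl15 in Ptn VP64 minus EGFP was 0.50 with never-saturated probes, 0.17 and 0.14 with these and the local shift removed, and 0.17 without saturated spots. Rps9 in Ptn Delta minus EGFP was -0.79 and -0.79. Rps15 was 0.21 and 0.21, and 0.30 with normexp, in Ptn VP64 minus Ptn DEL, and 0.91 and 0.91 in Ptn VP64 minus Ptn Delta. With the local shift removed, Rpl41 was -0.24 and -0.21 in Ptn VP64 minus Ptn Delta and -0.43 and -0.34 in Ptn DEL minus Ptn Delta, Rps7 was -0.18 and -0.04, and -0.30 and -0.16, and Rpl5 was 0.15 and 0.22 in Ptn DEL minus Ptn Delta. With its never-saturated probe, of mean level -0.95 with EGFP against 6.6 for the brightest, Rps15a was -0.20 in Ptn VP64 minus Ptn DEL. In Ptn DEL minus Ptn Delta it was 1.21 with the authors' values, 1.22 after quantile normalization, 0.80 with the array median, 0.36 with marked spots kept, 0.90 without saturated spots, 0.39 with the mean over probes and 0.34 with never-saturated probes. The cause was not tested.

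Each replicate number is 1 slide and row. Same-numbered arrays correlated above 0.1 in 15 of 24 pairs, from -0.07 to 0.47 with a median of 0.151, against a median of -0.0425 for other numbers. Since not every pair was above 0.1, the numbers were not taken to pair the samples, although 14 of 16 arrays correlated best with their own number. With the replicate number as a block the medians were -0.52, -0.41 and -0.26 for Ptn VP64, Ptn DEL and Ptn Delta minus EGFP, and -0.02, -0.10 and -0.18 between the TALE groups in the order above. The block called 54, 0, 0, 2, 7 and 0 of all genes, and 0 members. Settings with never-saturated probes, without saturated spots after the local shift was removed, without the 3 arrays, or with 1 array left out of the shift-corrected fit were added after the data were seen. Saturation limits what the brightest probes can show.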
